A study of Mus musculus with 3 samples.

Results

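The 10 genes described here encode the core of antigen presentation by the major histocompatibility complex (MHC) in the mouse: the class I heavy chains H2-K1 and H2-D1, their light chain B2m, the peptide transporter genes Tap1 and Tap2, the loading factor Tapbp, the invariant chain Cd74, and the class II chains H2-Aa, H2-Ab1 and H2-Eb1. They were taken by symbol from a table of 18038 genes, and all 10 were found. The samples were 3 hearts of C57BL/6J mice, genotype WT, an inbred strain, collected on day 9 after birth. They carry replicate numbers 1 to 3, had no treatment named in the labels, and form the only group, so there is no second condition. The set was selected on measured values, since an excess of these transcripts in heart 3 had been seen in the same counts. Differences between hearts in the 10 genes are therefore given as a description with no test. Levels of the genes relative to each other within a heart were not used for the choice and were tested. Each such test includes heart 3, so its result carries the excess wherever the paired genes do not share it. In those pairs the test is not independent of the choice.

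MHC class I molecules sit on nearly all nucleated cells and show peptides from inside the cell to CD8 T cells. Peptides cut by the proteasome are carried into the endoplasmic reticulum by the transporter made of Tap1 and Tap2, and tapasin, the product of Tapbp, holds the transporter next to an empty heavy chain bound to B2m. Class II molecules are made mainly by macrophages, dendritic cells and B cells, travel with the invariant chain Cd74, and show peptides from outside the cell to CD4 T cells. Interferon gamma is known to raise both sets of genes, with Nlrc5 as the main transcriptional coactivator of class I genes and Ciita of class II genes.

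Library totals ran to 18768094 counts for heart 3, 17766501 for heart 1 and 18643408 for heart 2. Pairs of hearts had Spearman correlations of 0.988 to 0.993 across genes, which are not independent replicates. Heart 1 stood apart through lung transcripts: Scgb1a1, secreted by club cells of the airway, had 13 counts in heart 3, against 4096 in heart 1 and 1 in heart 2. The cardiac genes Myh6, Actc1, Tnnt2 and Myl2 marked the tissue, at 11970 to 27070 TPM (a length-scaled unit with a total of 1000000 per heart). The labels do not say whether the hearts came from separate animals or litters, so a p-value here reflects the spread among 3 samples that may be technical.

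The excess of heart 3 was present in the class I chains, the class II chains and Cd74, and was not shared by the peptide transport and loading genes. Of the 10 genes, 8 were highest in heart 3, where 33.6% of all 13653 genes tested were, and 7 were at least 25% above each of the other hearts, where 3.87% of all genes were. Those 7 were B2m, H2-K1, H2-D1, Cd74, H2-Aa, H2-Ab1 and H2-Eb1, and the 3 others were Tap1, Tap2 and Tapbp. The eighth gene highest in heart 3 was Tap1, by a ratio of 1.02 to heart 1, and with library totals or FPKM heart 1 was the higher. Nothing is read from these counts, because the same contrast chose the genes. Each of the 10 had over 1 CPM (counts scaled to 1000000 per library) in every heart, so all passed the filter on low values, and none passed it through heart 3 alone. The median log2 ratio of the 10 genes was 1.007 for heart 3 over heart 1 and 0.96 for heart 3 over heart 2, beside 0.0088 and 0.0011 over all genes tested.

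**Figure D1:**
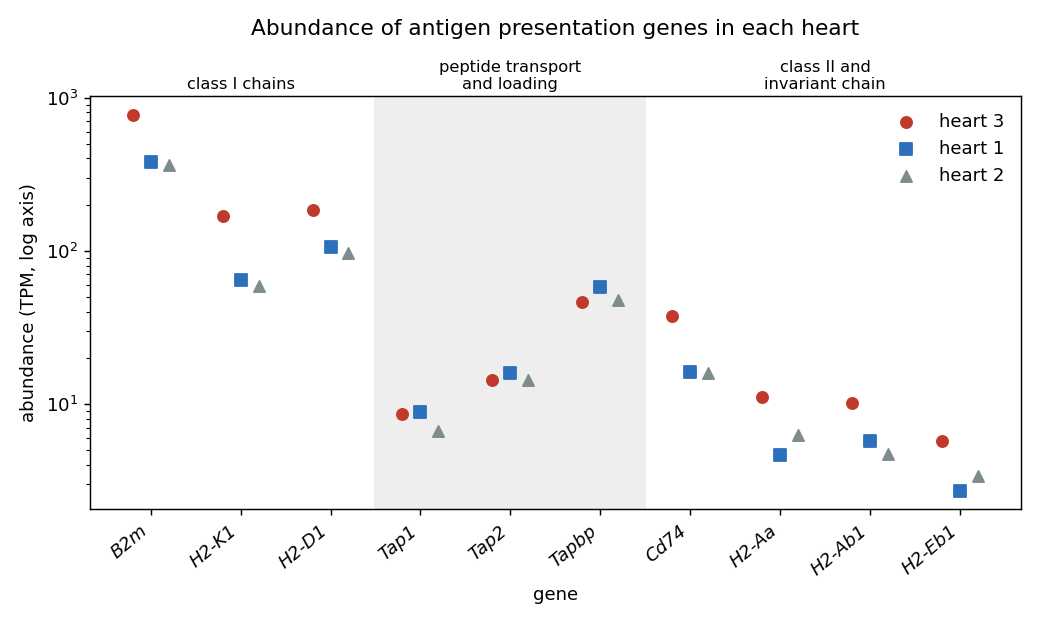
Abundance of the 10 genes in each heart in TPM on a log axis, with 1 point per heart and genes grouped by role. Points of heart 3 lie above those of hearts 1 and 2 for the 3 class I chains, Cd74 and the 3 class II chains, and among or below them for Tap1, Tap2 and Tapbp.

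B2m, the light chain shared by all class I molecules (Entrez gene ID 12010, chromosome 2 from 122147687 to 122153082, plus strand, GRCm38), was the most abundant of the set. Heart 3 held 5765 of its counts, against 2624 for heart 1 and 2601 for heart 2, or 766 TPM against 377 and 362 TPM. Heart 3 was 2.16-fold above heart 1 (95% interval 2.06 to 2.26) and 2.23-fold above heart 2 (2.13 to 2.33) in scaled counts. The intervals here and below are exact binomial ones for a pair of libraries and cover counting error only. With a mean of 502 ± 229 TPM (SD, n = 3), B2m ranked 318 among all genes of the table.

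H2-K1 (ID 14972, chromosome 17 from 33996012 to 34000619, minus strand) had the largest excess of the 10. Its counts were 2617 in heart 3, against 915 in heart 1 and 866 in heart 2, and its abundance was 170 TPM against 64.6 and 58.6 TPM. The ratio was 2.81 to heart 1 (2.60 to 3.03) and 3.04 to heart 2 (2.81 to 3.28). H2-D1 (ID 14964, chromosome 17 from 35263094 to 35267497, plus strand), the other classical heavy chain of this strain, had 2946.87 counts in heart 3, against 1588.63 in heart 1 and 1477.53 in heart 2, or 184 TPM against 106 and 96.1 TPM. Heart 3 was 1.82-fold above heart 1 (1.71 to 1.94) and 2.00-fold above heart 2 (1.88 to 2.13). Hearts 1 and 2 were close to each other for all 3 class I chains, with ratios of heart 2 to heart 1 between 0.91 and 0.97. Counts of H2-D1 were not whole, and class I heavy chains are near-copies of each other, so the level of H2-D1 is uncertain. Counts of H2-K1 and B2m were whole in each heart.

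The heavy chains differed in how far heart 3 departed. In that heart the TPM ratio of H2-K1 to H2-D1 was 0.924, against 0.607 in heart 1 and 0.610 in heart 2. B2m and the heavy chains kept their proportion: the TPM ratio of B2m to the sum of H2-K1 and H2-D1 was 2.17 in heart 3, against 2.21 in heart 1 and 2.34 in heart 2.

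Promoter sequence is shown for H2-K1, B2m and H2-Aa, a class I heavy chain, the light chain and a class II chain that were all higher in heart 3, because class I and class II promoters are known to share a module of W/S, X and Y boxes read by RFX, CREB and NF-Y factors together with Nlrc5 or Ciita. The sequences are from RefSeq (GRCm38.p6), read 5′ to 3′ on the strand of the gene, and end at or just before the start of an annotated transcript. They lie at chr17:34000348-34000547 on the minus strand (H2-K1), chr2:122147487-122147685 on the plus strand (B2m) and chr17:34287824-34288023 on the minus strand (H2-Aa). The H2-K1 stretch lies inside the span given above for that gene, which reaches further upstream, to 34000619. H2-K1 also has another annotated start further downstream, whose stretch is not shown. Capitals mark matches on either strand to the kappa B consensus and to TGACG (the core of the X2 box). They also mark CCAAT (the Y box, read as ATTGG on the other strand) and GAAANNGAA, a form of the interferon response core.
H2-K1: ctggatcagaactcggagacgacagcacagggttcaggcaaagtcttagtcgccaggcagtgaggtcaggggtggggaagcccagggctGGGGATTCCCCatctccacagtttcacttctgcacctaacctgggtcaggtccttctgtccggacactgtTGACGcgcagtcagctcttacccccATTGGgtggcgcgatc
B2m: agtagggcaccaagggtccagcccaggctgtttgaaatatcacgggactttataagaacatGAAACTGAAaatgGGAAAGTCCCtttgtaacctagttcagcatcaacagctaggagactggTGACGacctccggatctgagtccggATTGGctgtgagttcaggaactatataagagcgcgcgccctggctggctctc
H2-Aa: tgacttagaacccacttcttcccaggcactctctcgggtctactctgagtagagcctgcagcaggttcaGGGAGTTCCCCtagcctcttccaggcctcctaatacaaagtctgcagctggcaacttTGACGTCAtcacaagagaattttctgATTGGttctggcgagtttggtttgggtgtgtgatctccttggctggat

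RefSeq windows of 250 bases before to 50 bases after the start were searched for 7 of the 10 genes: H2-K1, H2-D1, B2m, H2-Aa, H2-Eb1, Tap1 and Tapbp. A CCAAT match was found for all 7 genes, and in 37.4% of the 32851 windows of all genes. Because H2-K1 had more than 1 window, a gene counted if any of its windows matched. The counts here are thus per gene and the shares per window. TGACG was found in 5 of the 7, the exceptions being H2-Eb1 and Tapbp, and in 20.8% of all windows. The kappa B consensus matched in H2-K1, H2-D1, B2m and H2-Aa and in 8.46% of all windows. Its matches in H2-K1, H2-D1 and H2-Aa lie on both strands and overlap each other. The core GAAANNGAA was in B2m alone of the 7 (8.56% of all windows), and neither TTCNNNGAA (8.30%) nor the E box CACGTG (7.15%) was in any of them. In H2-K1, H2-D1 and B2m a TGACG was followed after 20 bases by ATTGG, and in H2-Aa after 21 bases, where the TGACG also overlaps a second match on the other strand. An arrangement with 20 or 21 bases between was in 31 of the 32851 windows (0.0944%), which belong to 27 genes. This spacing was looked for after the sequences had been seen. A match describes letters in the window and is not a bound site.

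Tap1, Tap2 and Tapbp, the transport and loading genes, did not share the excess. Tap1 (ID 21354, chromosome 17 from 34187556 to 34197225, plus strand), a subunit of the peptide transporter, had 240 counts in heart 3, against 230 in heart 1 and 177 in heart 2. Its ratio was 1.02 to heart 1 (0.85 to 1.23) and 1.36 to heart 2 (1.12 to 1.66), so heart 3 lay with heart 1 and heart 2 was the lowest. Tap2 (ID 21355, chromosome 17 from 34204479 to 34216321, plus strand), the partner subunit, had 337 counts in heart 3, against 346 and 320 in hearts 1 and 2, with ratios of 0.96 (0.82 to 1.11) and 1.06 (0.91 to 1.24). Both intervals contain 1.

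Tapbp (ID 21356, chromosome 17 from 33919478 to 33929290, plus strand) had 1193 counts in heart 3, against 1391 in heart 1 and 1175 in heart 2, or 46.1 TPM against 57.6 and 47.3 TPM. Its ratio was 0.84 to heart 1 (0.78 to 0.91) and 1.02 to heart 2 (0.94 to 1.11). In hearts 1 and 2 Tapbp had more counts than H2-K1. Summed over the 3 genes, abundance was 69.1 TPM in heart 3, against 82.3 in heart 1 and 68.3 in heart 2. The ratio of the heavy chain sum to this loading sum was 5.11 in heart 3, against 2.08 in heart 1 and 2.27 in heart 2. In the annotation (GENCODE M21) exons of Tap1 overlap Psmb9 and those of Tap2 overlap Gm20496, both on the minus strand, and those of Tapbp overlap Zbtb22 on the same strand. No source used here gives the strand setting of the counting, so reads from such overlaps cannot be told apart.

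**Figure D2:**
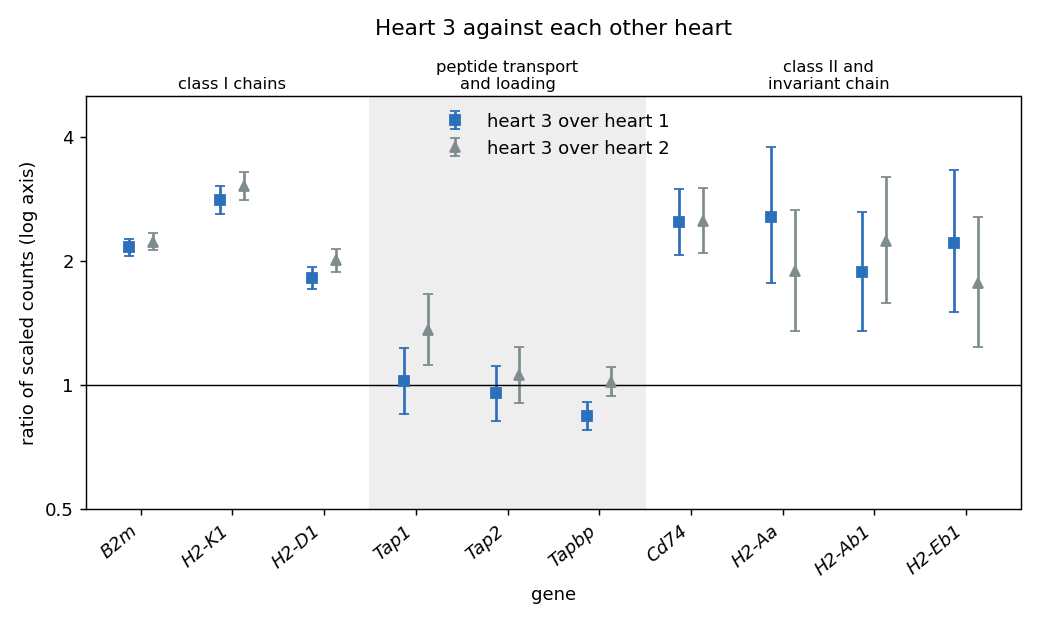
Ratio of scaled counts of heart 3 to heart 1 (squares) and to heart 2 (triangles) for each gene on a log axis, with exact binomial 95% intervals for counting error, and a line at 1. Ratios of the class I chains, Cd74 and the class II chains lie between 1.77 and 3.04, and those of Tap1, Tap2 and Tapbp between 0.84 and 1.36.

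Cd74, the invariant chain that blocks the class II groove until the molecule reaches the endosome (ID 16149), had 427 counts in heart 3, against 169 in heart 1 and 172 in heart 2. Its abundance was 37.6 TPM against 16.2 and 15.8 TPM, with ratios of 2.48 to heart 1 (2.07 to 2.98) and 2.49 to heart 2 (2.09 to 3.00). The ratio of heart 2 to heart 1 was 0.994.

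The class II chains were the least abundant of the set. H2-Aa, the alpha chain of the I-A molecule (ID 14960, chromosome 17 from 34282744 to 34287823, minus strand), had 107 counts in heart 3, against 41 in heart 1 and 57 in heart 2. Its partner H2-Ab1, the I-A beta chain (ID 14961, chromosome 17 from 34263227 to 34269418, plus strand), had 109 counts in heart 3, against 57 and 49. H2-Eb1, the beta chain of I-E (ID 14969, chromosome 17 from 34305867 to 34316674, plus strand), had 88 counts in heart 3, against 39 in heart 1 and 50 in heart 2. C57BL/6 mice are known to lack the I-E alpha chain, so its beta chain forms no surface I-E in this strain. Ratios to heart 1 were 2.56 (1.77 to 3.76) for H2-Aa, 1.88 (1.35 to 2.63) for H2-Ab1 and 2.21 (1.502 to 3.32) for H2-Eb1. Ratios to heart 2 were 1.89 (1.36 to 2.65), 2.24 (1.58 to 3.20) and 1.77 (1.24 to 2.56) in the same order. All 3 were highest in heart 3, and hearts 1 and 2 changed places between genes. Their intervals overlap those of Cd74 and B2m in both ratios, whereas in the ratio to heart 2 the interval of H2-K1 lies above those of H2-Aa and H2-Eb1.

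In sum the class II chains held 27.0 TPM in heart 3, against 13.02 in heart 1 and 14.3 in heart 2. The ratio of Cd74 to that sum was 1.39, 1.24 and 1.10 in hearts 3, 1 and 2, and the ratio of class I heavy chains to class II chains was 13.1 in heart 3, against 13.1 and 10.8. More cells of a type and more RNA per cell cannot be told apart in such whole-tissue samples.

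**Figure D3:**
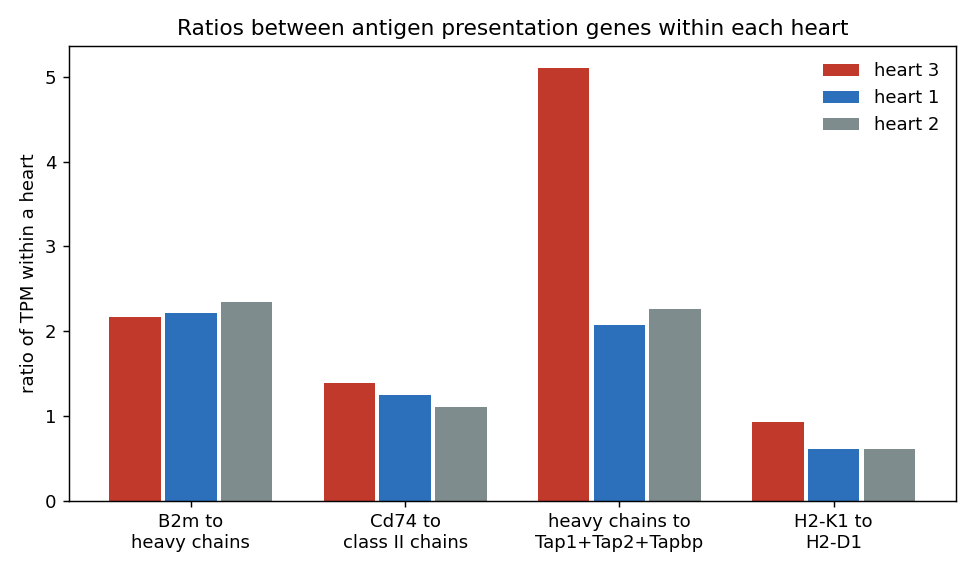
Ratios of TPM between antigen presentation genes within each heart, with 1 bar per heart and an axis from 0. B2m to heavy chains spans 2.17 to 2.34 and Cd74 to class II chains 1.10 to 1.39, while heavy chains to the sum of Tap1, Tap2 and Tapbp reach 5.11 in heart 3, against 2.08 in heart 1 and 2.27 in heart 2.

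Over the 3 hearts the order of mean abundance was B2m, H2-D1, H2-K1, Tapbp, Cd74, Tap2, Tap1, H2-Aa, H2-Ab1 and H2-Eb1, from 502 TPM down to 3.93 ± 1.57 TPM. Means of the others were 129 ± 47.8 (H2-D1), 97.5 ± 62.4 (H2-K1), 50.3 ± 6.32 (Tapbp), 23.2 ± 12.5 (Cd74), 14.9 ± 0.88 (Tap2), 8.06 ± 1.22 (Tap1), 7.34 ± 3.42 (H2-Aa) and 6.85 ± 2.87 TPM (H2-Ab1). Single hearts departed from this order at its low end. In heart 3 H2-Aa (11.17 TPM) and H2-Ab1 (10.11 TPM) lay above Tap1 (8.64 TPM). In heart 1 H2-Ab1 (5.69 TPM) lay above H2-Aa (4.61 TPM). All 45 pairs of the 10 genes were compared with edgeR's quasi-likelihood test on counts per length with the heart as a block, and 40 pairs differed at an adjusted p under 0.05 over the 45 pairs. The fit shares its estimate of spread over the 45 pairs, which reuse the same 10 genes and are not independent. Its p-values, also those with a heart left out, can therefore look firmer than so few hearts allow. B2m lay above its neighbour H2-D1 by 1.93 on the log2 scale (SE 0.296, adjusted p = 0.000108 by edgeR) and above H2-K1 by 2.45, in 3 of 3 hearts each.

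Of the neighbouring pairs further down the order, 4 were not distinguished. H2-D1 over H2-K1 was 0.52 (95% interval -0.01 to 1.05, edgeR adjusted p = 0.0583), with H2-D1 higher in 3 of 3 hearts. Without heart 3 this pair passed (0.72, edgeR adjusted p = 8.44e-10), a p-value that rests on hearts 1 and 2 and on spread shared between pairs. It also passed with no length correction (0.58, edgeR adjusted p = 0.0420) and with merged exon lengths (0.77, edgeR adjusted p = 0.0101). Cd74 over Tap2 was 0.52 (-0.24 to 1.28, edgeR adjusted p = 0.172), and -0.53 with no length correction (edgeR adjusted p = 0.171). The log2 ratio of TPM of Cd74 to Tap2 was 1.38 in heart 3, against 0.03 in heart 1 and 0.15 in heart 2.

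Where Tap1 stands against the class II chains depends on the lengths used, and for H2-Aa and H2-Ab1 also on the heart. The log2 ratio of TPM of Tap1 to H2-Aa was -0.37 in heart 3, against 0.94 in heart 1 and 0.10 in heart 2. That of Tap1 to H2-Ab1 was -0.23 in heart 3, against 0.64 in heart 1 and 0.49 in heart 2. Tap1 over H2-Aa was 0.20 (-0.46 to 0.86, edgeR adjusted p = 0.523), but 1.74 with no length correction (edgeR adjusted p = 0.000234) and 1.21 with merged exon lengths (edgeR adjusted p = 0.00279). The fifth pair not distinguished was Tap1 over H2-Ab1 (0.29, -0.31 to 0.89, edgeR adjusted p = 0.324), which reached 1.65 with no length correction (edgeR adjusted p = 0.000177) and 0.56 with merged exon lengths (edgeR adjusted p = 0.0705). Among the class II chains, H2-Aa over H2-Ab1 was 0.08 (-0.36 to 0.53, edgeR adjusted p = 0.684), and -0.65 with merged exon lengths (edgeR adjusted p = 0.00999). H2-Ab1 over H2-Eb1 was 0.79 (SE 0.175, edgeR adjusted p = 0.00154) with the lengths implied by the authors' values, 0.28 with no length correction (edgeR adjusted p = 0.165), 0.80 with no replicate block (edgeR adjusted p = 0.187) and -0.13 with merged exon lengths (edgeR adjusted p = 0.490).

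H2-K1 over Tapbp passed (0.77, SE 0.332, edgeR adjusted p = 0.0485), but its per-heart log2 ratios of TPM were 1.88 in heart 3, against 0.17 in heart 1 and 0.31 in heart 2. That call was lost without heart 2 (1.02, edgeR adjusted p = 0.0565), with no length correction (0.02, edgeR adjusted p = 0.955), with merged exon lengths (0.32, edgeR adjusted p = 0.360) and with no replicate block (0.97, edgeR adjusted p = 0.0967). Without heart 3 it was 0.23 (edgeR adjusted p = 0.0276).

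Tapbp over Cd74 was 1.24 (edgeR adjusted p = 0.00366), but its per-heart log2 ratios of TPM were 0.29 in heart 3, against 1.83 in heart 1 and 1.58 in heart 2. Tapbp exceeded both transporter subunits, by 1.76 over Tap2 and 2.65 over Tap1. Tap2 over Tap1 was 0.89 (SE 0.316, edgeR adjusted p = 0.0210). It no longer passed without heart 1 (0.92, adjusted p = 0.224 by edgeR), without heart 2 (0.79, adjusted p = 0.219 by edgeR), with no length correction (0.64, adjusted p = 0.0788 by edgeR) and with no replicate block (0.88, adjusted p = 0.0761 by edgeR). Cd74 exceeded H2-Aa, H2-Ab1 and H2-Eb1 by 1.63, 1.72 and 2.51, in 3 of 3 hearts each.

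The other genes of the pathway were compared with the test of variation between hearts (edgeR goodness of fit against the dispersion trend, adjusted over all 13653 genes tested), which 1.82% of all genes passed, 0.652% with heart 3 highest, while 5.71% had an unadjusted p under 0.05. Among 89 tested genes of 11 pathway lists, 1 passed, H2-Q7, and 7 had an unadjusted p under 0.05.

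Of the 12 other class I heavy chains on the list, 7 were tested, and 4 of the 7 were highest in heart 3, beside 33.6% of all genes. H2-Q7, a nonclassical heavy chain of the Qa-2 group, had 146.64 counts in heart 3, against 26.22 in heart 1 and 23.37 in heart 2 (edgeR adjusted p = 9.75e-06). H2-Q8, which was in no list, had 78.4 counts in heart 3, against 6.64 and 7.91 (edgeR adjusted p = 3.49e-05), and H2-Q9 was listed at 0 counts in heart 3, against 5.17 and 11.75. Counts of these near-identical genes were not whole, so their split is uncertain. Summed over H2-Q6, H2-Q7, H2-Q8 and H2-Q9 they were 225 in heart 3, against 38 in heart 1 and 43 in heart 2. H2-Q4 had 42.8 TPM in heart 3, against 27.3 and 27.7 TPM (edgeR adjusted p = 0.227). H2-T22 was at 26.9 TPM in heart 3, against 22.3 and 20.4 TPM, and H2-T23, the Qa-1 heavy chain, at 18.6 against 17.6 and 16.8 TPM. Neither H2-T22 nor H2-T23 passed the test, and H2-Ke6, which lies in the same region but encodes no MHC chain, was 1.11-fold and 1.21-fold higher in heart 3 than in hearts 1 and 2.

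Of the 6 other light chain and loading genes, none passed by edgeR goodness of fit, and 0 had an unadjusted p under 0.05. They include the endoplasmic reticulum chaperones Calr (449 ± 23.4 TPM), Canx (142 ± 6.88 TPM), Pdia3 (226 ± 5.03 TPM) and Hspa5 (318 ± 8.67 TPM). Ratios of heart 3 to the other hearts ran from 0.91 to 1.18 over the 6 genes.

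The immunoproteasome replaces constitutive catalytic subunits by ones induced by interferon. Psmb10 was at 63.4 TPM in heart 3, against 36.7 in heart 1 and 48.3 in heart 2 (edgeR adjusted p = 0.143). Psmb9, whose gene shares its promoter region with Tap1, had 63 counts in heart 3, against 35 and 50, and Psmb8 had 149, against 115 and 108. In heart 3 all 3 catalytic subunits were at least 25% above each other heart, where 3.87% of all genes tested were. The interval for counting error contained 1 for Psmb9 over heart 2 (1.27, 0.86 to 1.87) and for Psmb8 over heart 1 (1.27, 0.99 to 1.635). The proteasome activator genes Psme1 (290 TPM) and Psme2 (117 TPM) were not 25% higher. None of the 5 tested genes of this list passed (1 at an unadjusted p under 0.05), nor did any of the 5 constitutive counterparts Psmb5, Psmb6, Psmb7, Psme3 and Psme4 (0 at an unadjusted p under 0.05).

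Class II loading genes were mixed. H2-DMb1, a chain of the peptide editor DM, had 34.89 counts in heart 3, against 16 and 20, and its partner H2-DMa had 59, against 49 and 52. The endosomal proteases and reductase Ctsl (256 TPM), Lgmn (130 TPM), Ctss (24.2 TPM) and Ifi30 (32.6 TPM) had ratios of heart 3 to the other hearts between 0.80 and 1.16. Of the 6 tested, 0 passed and 0 had an unadjusted p under 0.05.

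Among transcription regulators of MHC genes no gene passed. Nfyc (127 TPM), Rela (47.5 TPM), Nfkb1 (39.1 TPM) and Rfxank (33.9 TPM) led the list, and of 13 tested 0 passed and 0 had an unadjusted p under 0.05. Nlrc5, the class I coactivator, had 30 counts in heart 3, against 25 in heart 1 and 20 in heart 2, with ratios of 1.18 (0.67 to 2.09) and 1.51 (0.83 to 2.80). Ciita, its class II counterpart, had 16 counts in heart 3, against 4 and 14, with ratios of 3.92 (1.26 to 16.12) and 1.15 (0.53 to 2.54), and lay below the filter of the test.

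Interferon gamma itself, Ifng, had 2, 0 and 1 counts in hearts 3, 1 and 2. Its receptor and signalling genes Ifngr2 (213 TPM), Jak1 (68.6 TPM) and Ifngr1 (45.1 TPM) were the highest of a list that gave 0 passes among 7 tested, and 0 at an unadjusted p under 0.05. Of 27 interferon-induced genes tested, 7 were highest in heart 3 and 17 in heart 1, where 33.6% and 37.0% of all genes were. None passed, and 4 had an unadjusted p under 0.05. The leading ones were Bst2 (37.0 TPM), Irf9 (19.2 TPM), Gbp9 (18.2 TPM) and Irgm1 (18.0 TPM). Cxcl9, a chemokine induced by interferon gamma, had 82 counts in heart 3, against 33 and 34 (edgeR adjusted p = 0.645), and Ifit3, induced by type I interferon, had 36.44 in heart 3, against 115.21 and 66.36 (edgeR adjusted p = 0.174).

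The lists of class I-like molecules (5 tested, led by Fcgrt at 81.0 TPM, with Cd1d1, Hfe and Mr1), of receptors that read MHC molecules (4 tested: Lilrb4a, Pirb, Lag3 and Cd4) and of costimulation genes (4 tested: Icosl, Cd40, Cd86 and Cd274) each gave 0 passes and 0 at an unadjusted p under 0.05.

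**Figure D4:**
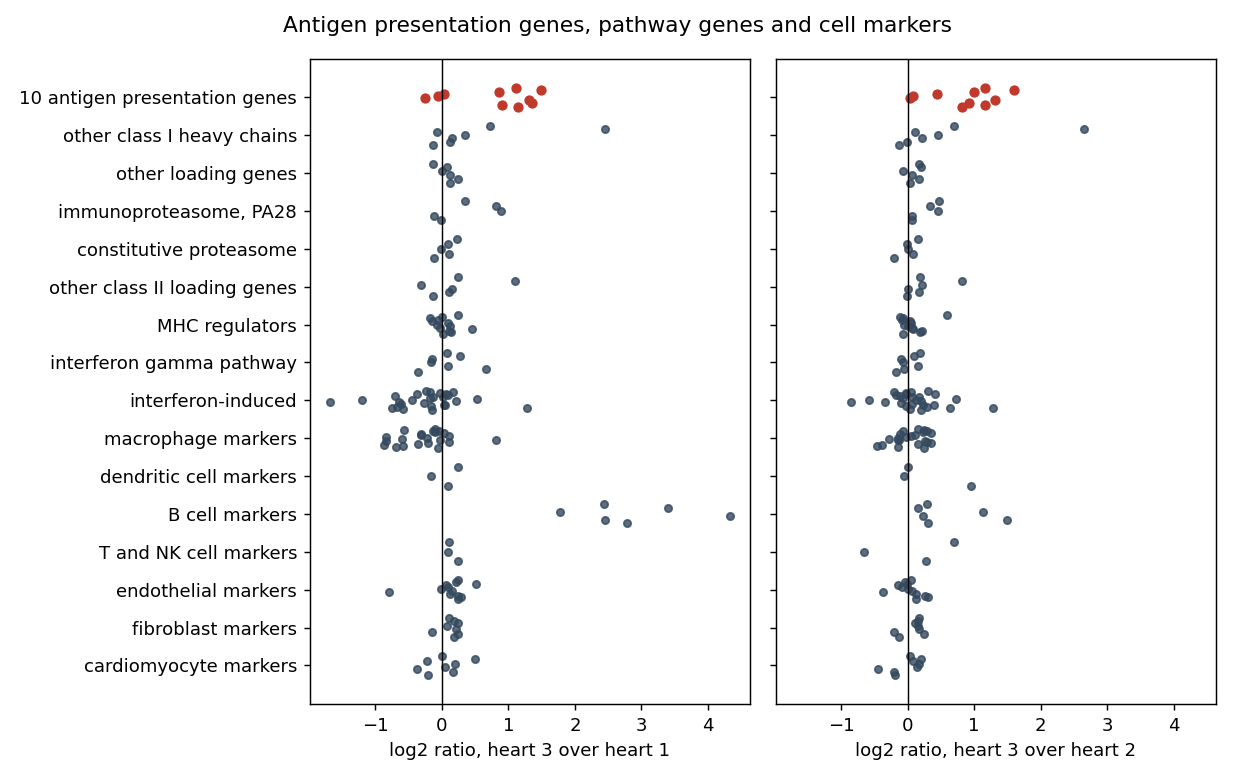
Log2 ratio of scaled counts in heart 3 to heart 1 (left) and to heart 2 (right), with 1 point per tested gene, for the 10 genes (red), other pathway genes and cell type markers. The median of the 10 genes is 1.007 and 0.96, B cell markers have medians of 2.62 and 0.30, and macrophage markers of -0.22 and 0.08.

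Markers of cells that carry class II were measured beside these genes. Of 22 macrophage markers, 3 were highest in heart 3 and 17 in heart 1, beside 33.6% and 37.0% of all genes, and their summed abundance was 490 TPM in heart 3, against 593 in heart 1 and 465 in heart 2. The complement genes C1qa, C1qb and C1qc and the lysozyme gene Lyz2 led the list, at 61.8 to 78.5 TPM. None of the 22 passed the test of variation by edgeR, and 2 had an unadjusted p under 0.05. Dendritic cell markers summed to 16.1 TPM in heart 3, against 16.6 and 15.9, with Zbtb46, Clec9a, Clec10a and Batf3 the highest. The sum rests largely on Zbtb46, which held 9.67 TPM in heart 3, against 9.27 in heart 1 and 10.1 in heart 2. Zbtb46 had 418 counts in heart 3, against 348 and 418, and Clec9a had 80, against 88 and 84. The other 8 markers had at most 26 counts in any heart. Among them Flt3 had 4, 3 and 0 counts, Batf3 1, 5 and 5, and Cd209a 2, 0 and 1 in hearts 3, 1 and 2, and Ccr7, of migrating dendritic cells and lymphocytes, had 12 in heart 3, against 2 and 4. Of 3 dendritic markers tested, 0 passed and 0 had an unadjusted p under 0.05.

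B cell markers moved with the class II genes in part. Of 8 markers 6 were tested, and all 6 were highest in heart 3 and had an unadjusted p under 0.05, and Ms4a1 and Cd79a passed. Of all genes tested, 33.6% were highest in heart 3, 5.71% had an unadjusted p under 0.05 and 1.82% passed. Ms4a1 (CD20) had 41 counts in heart 3, against 2 in heart 1 and 35 in heart 2 (edgeR adjusted p = 0.00380), and Cd79a, of the B cell receptor, had 43, against 4 and 39 (edgeR adjusted p = 0.0182). Cd79b had 63 counts in heart 3, against 18 and 29, and Cd22 had 28, against 5 and 10, and neither passed. The list summed to 16.3 TPM in heart 3, against 3.32 in heart 1 and 11.5 in heart 2. Between heart 3 and heart 2 the markers were split: the ratio was 1.11 for Cd79a and 1.18 for Ms4a1, and 2.18 for Cd79b and 2.81 for Cd22, beside 2.49 for Cd74. Heart 1 was the low one for Cd79a and Ms4a1, while for Cd74 heart 2 lay with heart 1. The part of B cells in the class II values was not tested.

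T and NK cell markers summed to 8.89 TPM in heart 3, against 7.23 and 6.00, led by Cd247, Cd2, Cd28 and Lck. Cd2 had 16 counts in heart 3, against 2 in heart 1 and 7 in heart 2, with ratios of 7.85 (1.85 to 70.3) and 2.30 (0.89 to 6.60), and Cd3e had 7, against 1 and 0, both below the filter of the test. Il2rb, also below that filter, had 12 counts in heart 3, against 17 in heart 1 and 13 in heart 2. Of the 3 tested, Cd247 had 50.99 counts in heart 3, against 46.63 and 31.68, Cd28 had 35, against 29 and 29, and Lck had 12, against 11 and 19. Of these 3, 0 passed and 0 had an unadjusted p under 0.05. The part of T cells in the MHC values was not tested. Among thymus markers Dntt and Prss16 were listed at 0 in all 3 hearts and Rag1 had 2, 0 and 1 counts, with Ccl25, Ptcra and Psmb11 the only others in the table. The one thymus marker tested, Ccl25, did not pass (0 at an unadjusted p under 0.05). Lung markers passed in Scgb1a1, Scgb3a2 and Sftpd, each highest in heart 1. The list summed to 8.24 TPM in heart 3, against 1619 in heart 1 and 1.68 in heart 2. Napsa had 27 counts in heart 3, against 14 and 15, and did not pass, and Lamp3 was listed at 0 in all 3 hearts. The part of such tissue in the results was not tested.

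Endothelial cells are known as a main site of class I expression in the heart. Their 12 markers summed to 4529 TPM in heart 3, against 4365 in heart 1 and 4457 in heart 2, with Fabp4, Cdh5, Eng and Pecam1 the highest, and none was 25% or more above each other heart in heart 3. None passed by edgeR (2 at an unadjusted p under 0.05). Fibroblast markers, led by Col3a1, Postn, Dcn and Col1a1, summed to 4431 TPM in heart 3, against 4146 and 4371, and cardiomyocyte markers to 85920 TPM, against 84530 and 83390. In both lists 0 of 8 passed and 0 had an unadjusted p under 0.05.

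The genes whose profile over the 3 hearts was nearest to the mean profile of H2-K1, H2-D1 and B2m were sought among 9869 genes with a mean of at least 10 CPM, by Euclidean distance of centred log2 CPM. B2m, H2-D1 and H2-K1, which make up that profile, were themselves at 0.07, 0.22 and 0.28. Cd74 was at 0.11, which the choice of the genes on the same excess favours. The class II chains lay below the limit of 10 CPM. Outside the set the 5 nearest were Junb, an AP-1 transcription factor (0.21), Lipo2, of a lipase family (0.28), Sik1, a salt-inducible kinase (0.28), Irs2, an insulin receptor substrate (0.35), and Depp1 (0.41). Junb had 405 counts in heart 3, against 195 in heart 1 and 209 in heart 2. In the test of variation Junb, Sik1 and Irs2 passed (edgeR adjusted p = 0.0322, 5.24e-07 and 0.0166). Lipo2 and Depp1 did not (edgeR adjusted p = 0.235 and 0.143). A search for this profile favours genes with such an excess, so these p-values are a description. Tap1, Tap2 and Tapbp were at distances of 0.82, 0.98 and 1.08. With 3 hearts such a distance is a description of these libraries.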

How the data were processed

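RNA of 3 WT hearts of C57BL/6J mice on day 9 after birth was, per the labels, Trizol-extracted total RNA made into DNBSEQ transcriptome libraries. The deposited table holds counts per gene, 87.5% to 87.6% of them within 0.005 of a whole number, so the deposited values were taken for estimated counts and rounded for tests. The FPKM columns deposited beside them, named so per the file headers, were rescaled to TPM. The submitters' processing notes name HISAT and GRCm38.p6. No source used here gives the counting tool, the annotation or the strand setting. One line with annotation spilled from H2-K1 and no values was left out, and the start the table gives for H2-K1 lies far from the gene, so positions are those of RefSeq (GRCm38.p6). A chi-square test of counts gave 9.70 to 23.7 per degree of freedom between hearts, above sampling noise for every pair, so each heart counted as 1 sample.

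Counts were scaled by TMM (factors 1.02, 0.996 and 0.985). For pairs of genes the quasi-likelihood test of edgeR 4.0.16 (with R 4.3.3 and limma 3.58.1) was used, two-sided, 6 columns per pair, the heart as a block, offsets of library size times the length implied by count and FPKM, and Benjamini-Hochberg adjustment over 45 pairs. Variation between hearts used an edgeR intercept fit with trended dispersion for genes with at least 1 CPM in at least 1 heart. DESeq2 1.42.0 served as an alternative. Both fits were tested on simulated data. A count of 0 allows up to 3 counts, 0.195 to 0.209 TPM at the length of H2-K1, for counting error only.

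The 10 genes, the 20 other lists (222 entries, 5 without a match by symbol, not analysed here) and the tests were chosen with earlier results of these data known. Named are the 10 genes and, of each list, the 4 highest in mean TPM, those past the variation test and defining markers listed at 0, the 4 highest other H2 genes, and the 5 nearest profiles. H2-Q6, H2-Q8, H2-Q9, Psmb9, H2-DMa, H2-DMb1, Nlrc5, Ciita, Ifng, Cxcl9, Ifit3, Flt3, Cd209a, Ccr7, Cd3e, Il2rb, Cd22, Psme4 and the H2-Q sum were named after their values were seen. Some genes that this rule names are not reported here.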

Additional observations from a re-analysis of the deposited data

How the results depend on the processing

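Of the 45 pair comparisons, 31 kept their direction and their side of the threshold under all 8 alternatives. Pairs past the threshold numbered 40, and 37 with no length correction, 40 with merged exon lengths, 34 with no replicate block, 40 with DESeq2 size factors, 40 with the DESeq2 Wald test and 36 to 41 when 1 heart was left out. Direction turned for Cd74 over Tap2 (-0.53) and H2-Aa over H2-Ab1 (-0.088) with no length correction, for H2-Aa over H2-Ab1 (-0.65), H2-Aa over H2-Eb1 (-0.78) and H2-Ab1 over H2-Eb1 (-0.13) with merged exon lengths, and when 1 heart was left out for Tap1 over H2-Aa (-0.15 without heart 1, up to 0.51 without heart 3) and H2-Aa over H2-Ab1 (-0.066 without heart 2, up to 0.26 without heart 1). Length alternatives change only the lengths, so those turns come from them. For the left-out hearts the cause was not tested.

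Genes that vary between hearts numbered 249, and 114 without heart 1, 151 without heart 2 and 116 without heart 3, where the fit holds fewer samples. With DESeq2 size factors they were 249, without a filter 256, with 1 CPM in every heart 214 and with a common dispersion 346. The 7 genes at least 25% higher in heart 3 stayed 7 in number with library totals, DESeq2 size factors, upper-quartile factors and deposited FPKM, and were 8 against heart 2 alone. Those highest in heart 3 numbered 8, 7 with library totals or FPKM, and 10 against heart 2 alone. No log2 ratio of the 10 genes moved by more than 0.298 under any scaling or pseudocount, and without heart 3 no such ratio exists. CCAAT matches were in 6 of 7 genes in the 200 bases before the start. Counts of 109 or fewer limit the precision of the class II chains.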
